A study of Mus musculus with 4 samples.

Results

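Bone morphogenetic protein (BMP) signalling was followed through 10 genes in mouse 3D engineered muscle: the ligand genes Bmp2, Bmp4 and Bmp6, the response genes Id1, Id2, Id3 and Id4, the inhibitory Smad genes Smad6 and Smad7, and the BMP antagonist gene Grem1. The members were all probes for genes, not controls, that the array files name after one of these 10 genes. They numbered 11 probes of 39429, for 10 genes of 31896, with 2 probes for Bmp4 and 1 for each other gene. The tissue, labelled as skeletal muscle, had either received 30 min of acute EPS or had not, and RNA was taken at 0 min or 5 h. EPS is spelt electrical plus stimulation in the labels and is read here as electrical pulse stimulation, which is used to make cultured muscle contract. The 4 groups were therefore unstimulated muscle at 0 min, unstimulated muscle at 5 h, stimulated muscle at 0 min and stimulated muscle at 5 h. Each was measured on 1 single-colour array, the unstimulated tissue being the negative control, and the labels give neither the cells from which the tissue was built nor any pooling. With no replicates there is no error between tissues and no test, and a difference between groups cannot be told apart from a difference between these particular arrays.

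BMPs are secreted dimers that bind pairs of serine/threonine kinase receptors, which phosphorylate Smad1, Smad5 and Smad9; these join Smad4 and enter the nucleus. Among the genes they induce are the Id genes, whose products bind E proteins and so keep myogenic bHLH factors such as MyoD from DNA, and Smad6 and Smad7, which feed back on the receptors. Gremlin 1, the product of Grem1, binds BMP2 and BMP4 outside the cell. In skeletal muscle, BMP signalling is known for holding precursor cells back from differentiation and for supporting mass in mature fibres.

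Values are levels: the log2 of the background-corrected spot signal minus that of the array's 75th percentile, which was between 1093 and 1491.9 signal units. A level is comparable between arrays for 1 probe and not between probes. A size rule of 2-fold, 1 on the log2 scale, takes the place of a test, applied where the probe was well above background on both arrays compared. Technical error was taken from 399 probes printed 10 times on each array, as the standard deviation of a log2 difference between spots. Its 95th percentile depended on brightness: over the 4 comparisons it was 0.06 to 0.08 at levels of 0 or above, 0.09 to 0.12 between -3 and 0, and 0.35 to 0.37 under -3. Of the 10 genes, 8 were well above background on all 4 arrays, Bmp6 on 3 and Id4 on 1. All 16 muscle markers were well above background on every array, while the pan-leukocyte marker gene Ptprc was so on none, although the labelling protocol speaks of leukocyte RNA. Of 8 leukocyte markers 5 or 6 were above background, depending on the array. Of fibroblast markers 9 of 10 were above background on all 4 arrays, of endothelial markers 4 of 8 (not Cdh5, Tek, Emcn or Esam), and of adipocyte markers 1 of 6.

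The clearest pattern lay in time rather than in stimulation: Bmp4, Id3 and Smad6 were more than 2-fold lower at 5 h than at 0 min in both unstimulated and stimulated muscle, Id2 was so in unstimulated muscle, and Grem1 was higher at 5 h. For these 4 lower genes the 250 bases before the gene start are shown, so that the sequences of genes that were lower together can be set side by side. They are RefSeq sequences on build GRCm38.p6, from a promoter table in which 7 of the 10 genes were matched, read 5′ to 3′ on the gene's strand. The Bmp4 stretch is chr14:46390670-46390919 (minus strand), that of Id3 chr4:136143572-136143821 (plus), that of Smad6 chr9:64022060-64022309 (minus) and that of Id2 chr12:25096093-25096342 (minus). Capitals mark matches, on either strand, to GGCGCC and CAGAC, short motifs that Smad proteins can bind, to CANNTG, the E-box of bHLH factors, and to TGACGTCA, the cAMP response element.
Bmp4: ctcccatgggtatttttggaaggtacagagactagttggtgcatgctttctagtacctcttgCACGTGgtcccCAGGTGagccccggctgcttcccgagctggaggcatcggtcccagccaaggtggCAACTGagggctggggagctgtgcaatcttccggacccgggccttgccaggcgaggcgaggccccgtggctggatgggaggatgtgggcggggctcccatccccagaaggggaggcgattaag
Id3: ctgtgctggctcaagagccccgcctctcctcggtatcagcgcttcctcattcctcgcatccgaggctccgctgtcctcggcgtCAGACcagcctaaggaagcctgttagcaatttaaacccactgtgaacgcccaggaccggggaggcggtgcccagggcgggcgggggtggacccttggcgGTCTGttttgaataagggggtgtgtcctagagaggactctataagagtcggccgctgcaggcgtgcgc
Smad6: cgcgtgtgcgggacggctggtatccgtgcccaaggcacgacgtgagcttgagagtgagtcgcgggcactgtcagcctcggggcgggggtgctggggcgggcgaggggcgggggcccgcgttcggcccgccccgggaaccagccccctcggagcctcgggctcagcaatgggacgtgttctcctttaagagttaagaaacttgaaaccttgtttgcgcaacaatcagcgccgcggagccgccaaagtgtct
Id2: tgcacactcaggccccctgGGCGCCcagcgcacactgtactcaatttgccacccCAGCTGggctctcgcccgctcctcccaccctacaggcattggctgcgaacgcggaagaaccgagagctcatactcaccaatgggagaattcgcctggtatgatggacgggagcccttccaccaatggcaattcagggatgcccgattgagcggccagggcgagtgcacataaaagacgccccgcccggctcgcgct
The Bmp4 stretch held 3 E-boxes, that of Id2 held 1 E-box and 1 GGCGCC, that of Id3 held 2 copies of CAGAC, and that of Smad6 held none of the 4 motifs. No matches overlapped. Of 32851 promoters in the table, 66.2% held an E-box in the same window, 42.2% CAGAC, 9.59% GGCGCC and 1.55% TGACGTCA. Bmp4 and Id2 thus both held an E-box, none of the motifs was in all 4 stretches, and the E-box and CAGAC are common in promoters. Their content of G and C lay between 62.8% and 66.8%. A match describes letters and is no evidence of binding.

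Id3 had the widest range of the genes above background on all arrays. Its probe has the sequence below, shown because the Id3 values rest on this 1 spot per array.
Id3 probe: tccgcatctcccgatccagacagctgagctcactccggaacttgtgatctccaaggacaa
On build mm9 the array design places it at chromosome 4, 135700075 to 135700249 (plus strand), a span of 175 bases for 60, so that 115 bases are skipped within it. The exon structure of that build was not used here. The level of Id3 was 2.21 in unstimulated muscle at 0 min, 1.06 in unstimulated muscle at 5 h, 3.02 in stimulated muscle at 0 min and 0.84 in stimulated muscle at 5 h. Both 0 min arrays were higher than both 5 h arrays, and the stimulated 0 min array stood highest. Id3 was 2.22-fold lower at 5 h without EPS and 4.54-fold lower with EPS, log2 differences of -1.15 and -2.18. In the second comparison it was the 56th lowest of 18470 genes.

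Smad6, the inhibitory Smad that acts mainly on BMP receptors, showed the steepest difference of the genes in unstimulated muscle. Its levels at 0 min were -1.69 without EPS and -1.48 with EPS, and those at 5 h were -3.44 and -3.54. The 2 arrays of 1 time point lay close together and far from the other 2. Smad6 was 3.35-fold lower at 5 h without EPS and 4.18-fold lower with EPS, at ranks 92 of 18486 and 67 of 18470 from the lowest. Its probe lies at chromosome 9, 63800980 to 63801039 (mm9, minus strand). Under normexp background correction, which pulls in differences of dim probes, its log2 differences were -1.41 and -1.68 in place of -1.75 and -2.06.

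Bmp4, which encodes a ligand, had levels of 2.57 without EPS and 2.55 with EPS at 0 min, against 1.24 and 0.95 at 5 h. Again the arrays fell by time point, with both 5 h arrays below both 0 min arrays. It was 2.53-fold lower at 5 h without EPS and 3.03-fold lower with EPS. This holds for the probe at chromosome 14, 47003391 to 47003450 (mm9, minus strand). The second Bmp4 probe, at 47003198 to 47003257 on the same strand, was not well above background on any array, with levels between -7.39 and -7.16. Its 60 bases are 85.0% A and T, against 61.7% for the first. With the mean of both probes the differences of Bmp4 were -0.72 and -0.91, under 2-fold, since a background signal then enters the mean.

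Id2 had levels of 1.30 without EPS and 1.52 with EPS at 0 min, and of 0.26 and 0.77 at 5 h. It was 2.07-fold lower at 5 h without EPS and 1.68-fold lower with EPS, the latter under the size rule. With arrays centred on their medians the first difference was -0.91, also under it. Its probe lies at chromosome 12, 25778904 to 25778963 (mm9, minus strand).

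Grem1 went in the other direction, under 2-fold in both time comparisons. Its levels were 4.90 without EPS and 4.83 with EPS at 0 min, and 5.51 and 5.79 at 5 h, so that both 5 h arrays lay above both 0 min arrays. Grem1 was 1.53-fold higher at 5 h without EPS and 1.95-fold higher with EPS, at ranks 1080 of 18486 and 491 of 18470 from the highest. The log2 differences were 0.62 and 0.96. The second passed 2-fold under the 3 other scalings or corrections tried: 1.0 with normexp, 1.11 with quantile normalization and 1.14 with median centring. Its probe lies at chromosome 2, 113589227 to 113589286 (mm9, minus strand), and no spot on the arrays was saturated.

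**Figure D1:**
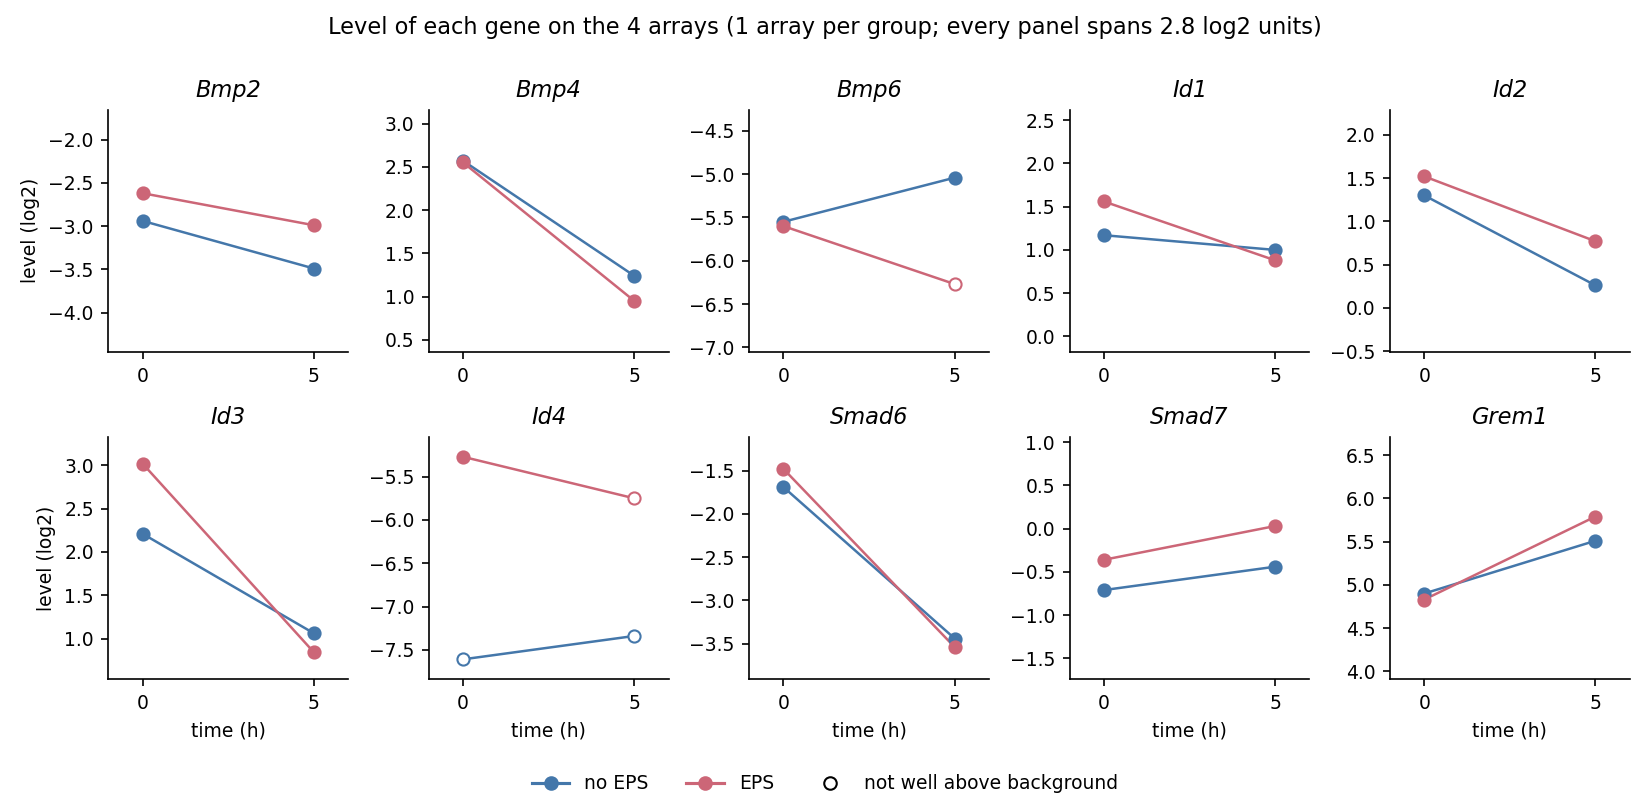
Level of each gene (log2 signal relative to the array's 75th percentile, y axis) at 0 and 5 h (x axis) without EPS (blue) and with EPS (red), 1 array per point, with open points where the probe was not well above background. Lines for Bmp4, Id3 and Smad6 descend in both colours and those of Grem1 ascend, and for Id3 the EPS point at 0 min (3.02) is above that without EPS (2.21).

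The remaining members varied less with time. Id1, the classic BMP-induced Id gene, had levels of 1.17, 1.0, 1.56 and 0.88 in the order unstimulated 0 min, unstimulated 5 h, stimulated 0 min and stimulated 5 h. It was 1.12-fold lower at 5 h without EPS and 1.61-fold lower with EPS. Bmp2 stood at -2.94, -3.49, -2.62 and -2.99 in the same order and was 1.47-fold and 1.30-fold lower at 5 h. Smad7, which restrains TGF-beta as well as BMP receptors, went the other way from Smad6: its levels were -0.71 and -0.36 at 0 min and -0.44 and 0.03 at 5 h, without and with EPS. It was 1.21-fold higher at 5 h without EPS and 1.31-fold with EPS. Bmp6 was dim, with levels of -5.55 and -5.04 in unstimulated muscle and -5.60 in stimulated muscle at 0 min, and was not well above background in stimulated muscle at 5 h. Id4 was well above background only in stimulated muscle at 0 min, at a level of -5.27, and nominally 1.74-fold higher there than in unstimulated muscle. For such a nominal fold the dim array enters at the lowest level at which any probe there was well above background, or at the probe's measured level where that was higher. Probes not well above background can lie above that lowest level, so a nominal fold is no strict bound and the true fold may be smaller. In stimulated muscle at 5 h the level of Id4 was -5.75, not well above background and nominally 1.4-fold lower than at 0 min.

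Counted over the measured members, 4 of 9 were at least 2-fold lower at 5 h in unstimulated muscle, where 2.96% of 18486 genes were, and none was 2-fold higher, against 1.74% of genes. In stimulated muscle 3 of 8 were at least 2-fold lower, against 3.64% of 18470 genes, and none was higher, against 2.4%. Bmp4, Id3 and Smad6 were 2-fold lower in both time comparisons, which share no array. Among all genes 294 of 18107, 1.62%, were so, and 1.07% were higher in both. The members were chosen with earlier results of these data known, so these shares are a description only. The median difference of the members was -0.55 without EPS and -0.72 with EPS, beside -0.02 and -0.08 over all genes measured. Most fibroblast markers were also lower at 5 h: their median was -0.54 without EPS and -0.62 with EPS, and 7 and 8 of 9 measured lay below 0. The receptor gene Pdgfrb, with differences of -1.77 and -2.43, was the only 1 of these past 2-fold. Pdgfra was higher at 5 h, by 0.72 and 0.46, and Dcn differed by 0.04 without EPS and -0.34 with EPS. The summed signal of the fibroblast markers, in multiples of the array's 75th percentile, was 324 and 355 at 0 min without and with EPS. At 5 h it was 295 and 253, and Thy1 was not above background on any array. The muscle markers had medians of -0.20 and -0.38. The 4 measured endothelial markers of 8 all lay below 0 in both time comparisons, with medians of -0.37 and -0.36. Of these, Pecam1 (-0.08 and -0.18) and, with EPS, Flt1 (-0.05) were within the spot error. The summed signal of the endothelial list was 3.42 and 3.66 at 0 min without and with EPS, and 3.12 and 2.13 at 5 h. Most of it was Kdr, with levels of 1.61 and 1.74 at 0 min and 1.52 and 0.89 at 5 h. The part of these markers in the time differences was not tested, and in a whole tissue fewer cells of a type cannot be told apart from less RNA per cell.

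**Figure D2:**
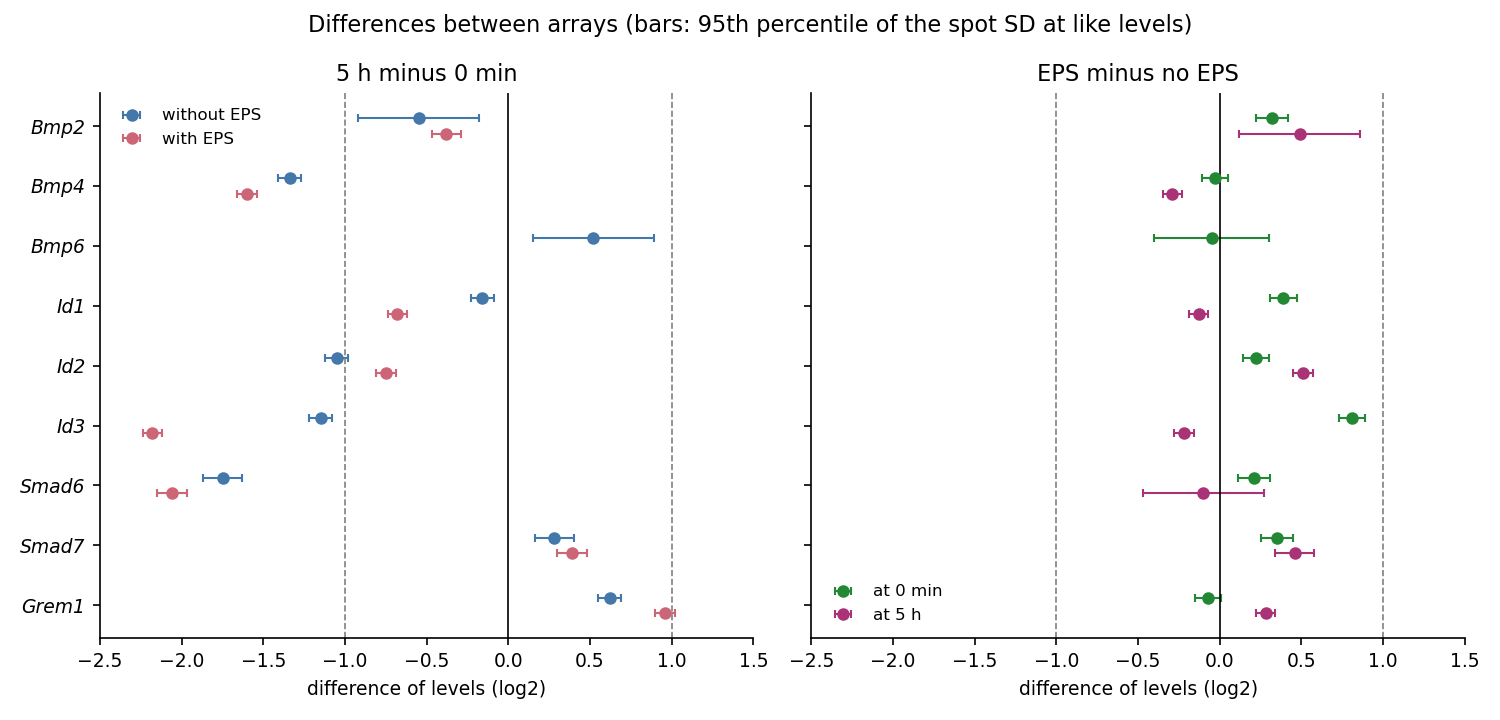
Log2 differences of levels for the 9 genes with a measured difference, over time (left, without and with EPS) and between stimulated and unstimulated muscle (right, at 0 min and 5 h); bars are the 95th percentile of the spot standard deviation at like levels, and dashed lines mark 2-fold. Bmp4, Id3 and Smad6 pass the line on the left with both colours, where the bars of Id2 and Grem1 reach it, and no point passes it on the right.

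**Figure D3:**
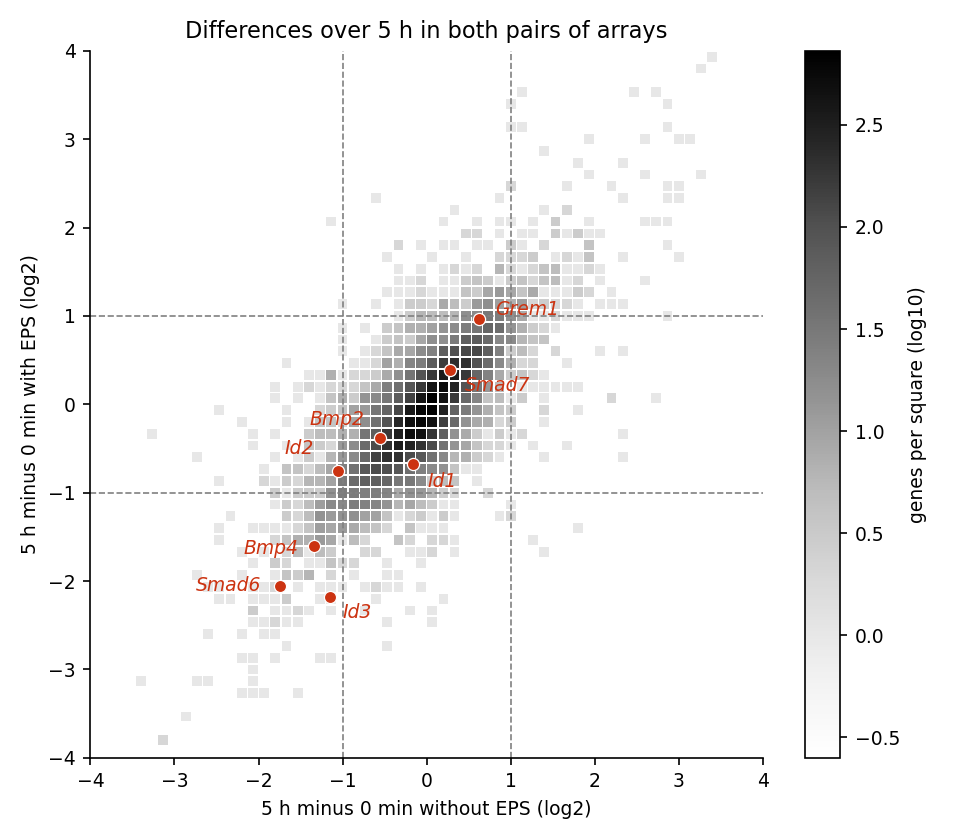
Difference between 5 h and 0 min without EPS (x axis, log2) against the same with EPS (y axis, log2) for genes well above background on all 4 arrays, as gene density in grey (11 genes lie outside the axes), with 8 members in red and dashed lines at 2-fold. Bmp4, Id3 and Smad6 lie in the lower left corner with 294 genes in all, and Grem1 lies just under the upper line.

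Directly after stimulation no member differed 2-fold from unstimulated muscle, among 9 measured, where 0.549% of 18590 genes were at least 2-fold higher and 0.791% lower. The largest difference was that of Id3, 1.75-fold higher with EPS, a log2 difference of 0.81, where the 95th percentile of spot error was 9.86 times smaller. It was the 167th highest of 18590 genes. Id1 was 1.31-fold higher, Smad7 1.28-fold, Bmp2 1.25-fold, and Id2 and Smad6 1.16-fold each. Bmp4, Bmp6 and Grem1 differed by -0.03, -0.05 and -0.07 on the log2 scale, within the spot error. The members' median was 0.22, beside 0.02 over all genes. The differences of the ligand genes Bmp4 and Bmp6 and the antagonist gene Grem1 were thus within the spot error. All 3 measured Id genes, Smad6, Smad7 and the ligand gene Bmp2 were higher on the stimulated array. Muscle markers were also higher there, 13 of 16 lying above 0 with a median of 0.14, and their summed signal was 986 with EPS against 873 without. Their part in the difference was not tested.

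At 5 h after stimulation, again no member differed 2-fold among 8 measured, where 0.69% of 18544 genes were higher and 0.523% lower. Id2 was 1.43-fold higher with EPS, Bmp2 1.41-fold, Smad7 1.38-fold and Grem1 1.22-fold. Bmp4 was 1.22-fold lower, Id3 1.17-fold and Id1 1.09-fold, and the difference of -0.10 for Smad6 was within the spot error. Bmp6 was nominally 2.35-fold lower with EPS, which is no strict bound, since it was well above background without EPS only. The median of the measured members was 0.09 and that of all genes -0.03. Smad7, Id2 and Bmp2 were therefore higher with EPS at both time points, by 0.35 and 0.46, 0.22 and 0.51, and 0.32 and 0.49 on the log2 scale. The Bmp2 probe was dim. Its difference at 5 h was 1.35 times the 95th percentile of spot error, 0.37, and was 0.29 under normexp, within that error.

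The EPS difference of Id3 was lower at 5 h than at 0 min by 2.04-fold, a difference of differences of -1.03, and Id3 alone among the 8 members passed the size rule in that direction, as did 0.994% of 18107 genes; none passed it upward, where 1.0% did. This call sits on the line, with values of -0.97 under normexp, -1.0 under quantile normalization and -0.98 under median centring, all under 2-fold before rounding. Id1 had a difference of differences of -0.52, and the other 6 lay between -0.32 and 0.35.

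The rest of the pathway was described from gene lists. Of the 13 other BMP and GDF ligand genes, 6 were above background on all arrays and none of these differed 2-fold in any comparison. Gdf6 came nearest, with differences of -0.97 and -0.80 between 5 h and 0 min without and with EPS. Gdf5, a ligand of joint formation, lay within 0.29 of 0 in each comparison. All 13 receptor and co-receptor genes on the arrays were measured throughout. The type I receptor genes Bmpr1a and Acvr1 differed by 0.22 or less in size in each of the 4 comparisons, and the type II receptor gene Bmpr2 by 0.28 or less. Bmpr1b was higher at 5 h by 0.64 and 0.66, and the co-receptor gene Rgmb was lower by 0.62 and 0.69. Tgfbr3, betaglycan, was 2.69-fold lower at 5 h with EPS, with a difference of -0.99 without, the only one of 13 to pass the size rule.

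Among the other extracellular antagonists and modulators, 15 of 20 genes were measured in each comparison. Fst, which encodes the activin and BMP binding protein follistatin, was 2.23-fold lower at 5 h without EPS and 1.91-fold lower with EPS, opposite to Grem1. Dand5 was lower by 0.48 and 0.74. Noggin (Nog), a dim probe, differed by 0.46 without EPS and by 0.00 with it. Between stimulated and unstimulated muscle, no measured gene of this list differed 2-fold at either time.

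Of the signal-carrying Smads, Smad9 differed by more than 2-fold and the other 5 did not in any comparison. Smad1, Smad5 and Smad4 were higher at 5 h by 0.48, 0.26 and 0.17 without EPS and by 0.55, 0.23 and 0.25 with EPS, and Smad3, of the TGF-beta branch, was lower by 0.48 and 0.56. Smad9, itself a BMP-induced gene, was highest in unstimulated muscle at 0 min, at -3.57, stood at -5.55 in stimulated muscle at that time, and was not well above background at 5 h. Stimulated muscle at 0 min was lower by 3.95-fold, and unstimulated muscle at 5 h by a nominal 6.51-fold, which is no strict bound. Both folds rest on the unstimulated 0 min array, and the first was -0.79 on the log2 scale under normexp. Of 16 intracellular Smad regulators, 15 were measured and none reached 2-fold. Tob1 differed by -0.73 between 5 h and 0 min with EPS, Tob2 by 0.71 without EPS, and Bambi, a decoy receptor gene, was not above background on any array.

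Other BMP target genes included several with a time difference like that of Smad6. In unstimulated muscle 3 of 16 were at least 2-fold lower at 5 h and 1 was higher, beside 2.96% and 1.74% of all genes. In stimulated muscle 3 of 15 were lower and 1 higher, beside 3.64% and 2.4%. As the list was chosen with earlier results of these data known, these shares are a description only. Hes1, also a Notch target, was 3.52-fold lower without EPS and 3.38-fold lower with EPS. Under normexp the log2 differences of Hes1 were -1.33 and -1.34 in place of -1.82 and -1.76. Klf2, a flow-responsive transcription factor gene, was 2.09-fold and 2.59-fold lower; under median centring the first was -0.93 on the log2 scale. Atoh8, a bHLH factor gene, was 2.46-fold lower at 5 h without EPS and 7.13-fold lower with EPS, from levels of -3.09 and -2.99 at 0 min to -4.39 and -5.83, and 2.71-fold lower with EPS than without at 5 h. Under normexp these differences of Atoh8 were -0.84, -1.52 and -0.57. Prdm1 was 3.12-fold higher with EPS at 5 h, with levels of -3.87 without and -2.23 with EPS. The log2 difference was 1.64, or 1.07 under normexp. Prdm1 was also 2.28-fold higher at 5 h than at 0 min in stimulated muscle, a log2 difference of 1.19, or 0.74 under normexp. Tbx2, dim throughout, was 2.18-fold lower with EPS at 5 h, and 2.08-fold higher at 5 h without EPS, with normexp values of -0.45 and 0.32. Msx1, Msx2 and Hey1 passed the size rule in no comparison, with differences from -0.57 to 0.47. The osteoblast factor gene Sp7 was not above background on any array. Of 9 bone and cartilage markers, 6 were well above background on some array. Alpl was so at 5 h only, at levels of -4.72 without and -3.70 with EPS, 2.02-fold higher with EPS. Between stimulated and unstimulated muscle at 5 h, 5 of the 6 measured lay above 0 and 1 below, with a median of 0.41. The list's summed signal was 28.5 and 26.6 at 0 min without and with EPS, and 29.3 and 47.5 at 5 h. Most of this signal was Spp1, with levels of 4.8 and 4.69 at 0 min without and with EPS, and 4.85 and 5.55 at 5 h. The sum therefore follows Spp1 and does not describe the list as a whole.

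**Figure D4:**
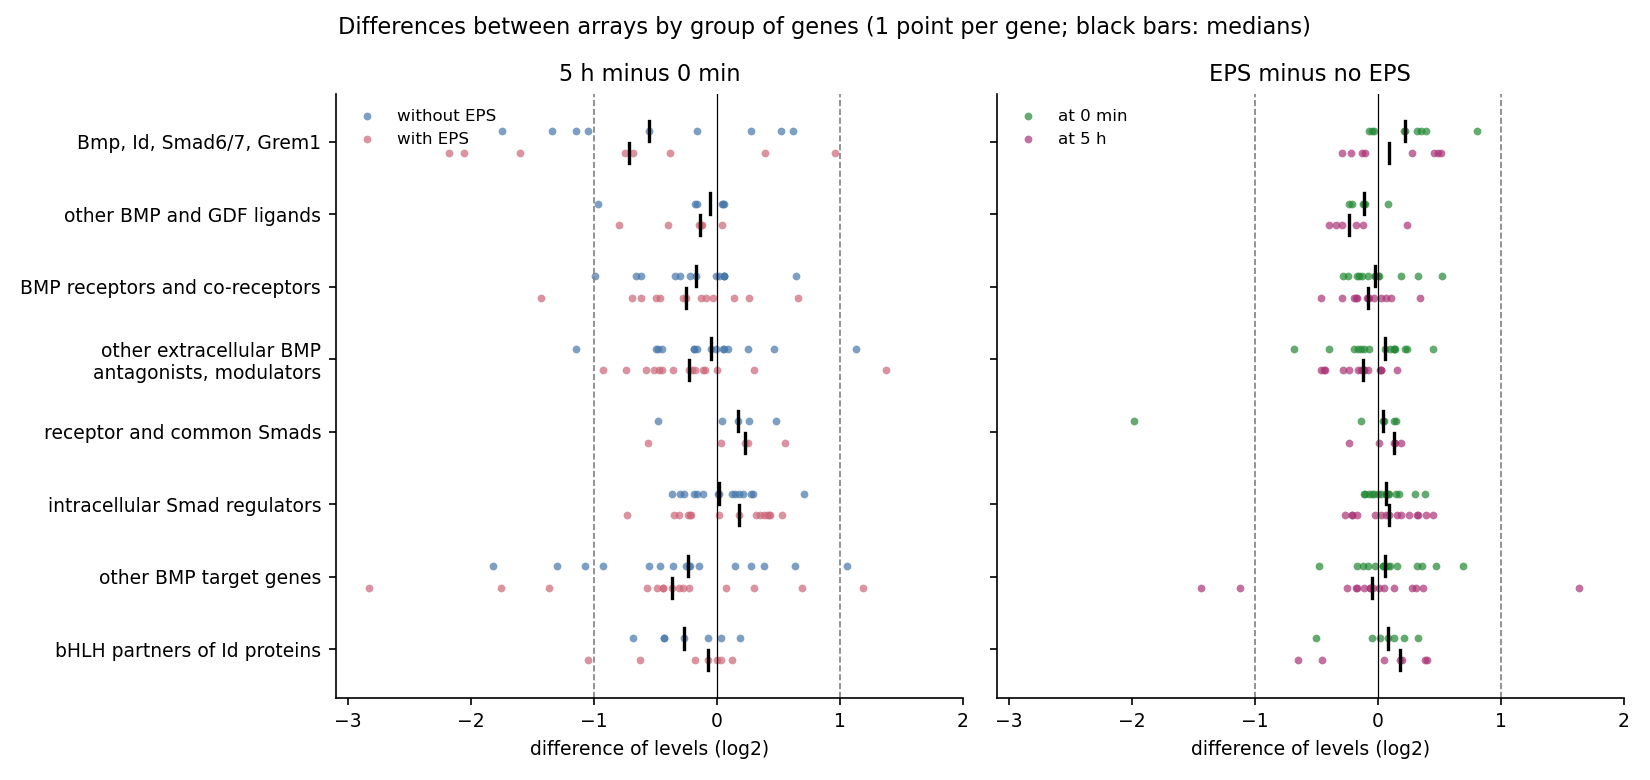
Log2 differences of levels for each measured gene (1 point each) of the 10 members and of 7 further groups of the pathway, over time (left) and between stimulated and unstimulated muscle (right), with black bars at the medians and dashed lines at 2-fold. Points left of the 2-fold line on the left panel are mostly members and other BMP target genes, and ligands, Smad regulators and most receptors lie within the lines.

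Genes whose products bind Id proteins, or act with those that do, were listed as bHLH partners. Of 11 listed, 7 were measured in every comparison. The E protein gene Tcf3 lay within 0.08 of 0 in each, Tcf12 differed by -0.43 and -0.18 between 5 h and 0 min without and with EPS, and Tcf4 by -0.68 and -0.63. Myod1 and Myog, master genes of the muscle programme, differed from 0 by at most 0.40 in each comparison, both being higher with EPS at both times. Myf6 was 2.08-fold lower at 5 h with EPS, the only 2-fold difference of this list, and its value was -0.87 under median centring. Myf5 was not above background on any array.

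For members above background on all arrays that spanned at least 1 log2 unit, the 3 genes closest in pattern over the 4 arrays were sought among 10450 named genes, by the root mean square difference of centred levels. For Bmp4 these were Filip1l (0.02), Fam102b (0.05) and Pxylp1 (0.05), for Smad6 the Notch ligand gene Dll1 (0.05), the clock output gene Dbp (0.08) and Arhgap18 (0.12). For Id3 they were the calponin gene Cnn2 (0.08), the antiproliferative gene Btg2 (0.20) and Plin4 (0.24), and for Id2 Prss46 (0.06), Rad51b (0.07) and Gem (0.09). With 4 arrays and many candidates such likeness is a description of these arrays.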

How the data were processed

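Each of the 4 samples is 1 single-colour (Cy3) array. Agilent Feature Extraction 10.7.3.1 made the deposited intensities; per the file headers it subtracted the background, detrended each array and replaced values of spots near background by a surrogate. The deposited value table equalled these intensities at all 44397 spots of each array, to a relative tolerance of 1e-05. Its flags give which spots were well above background, saturated or outlying, and the 112 to 141 outlying spots of each array were left out. Levels, the log2 of the deposited intensity minus the 75th percentile of spots that are not controls, were averaged over the spots of a probe, and where a gene had several probes the brightest was used. Of 39429 probes, 26055 were matched by accession to RefSeq names (GRCm38.p6). A single array per group limits the precision, and no p-value was computed. The calculation was tested on simulated data. Alternatives were normexp background correction (limma 3.58.1, R 4.3.3, offset 50), quantile normalization, median centring, other background filters and the mean of probes. The rest was computed in Python 3.11.15 with numpy 2.4.6 and pandas 2.3.3. The members, lists and promoter motifs were chosen with earlier results of these data known. Named in the lists were genes at 2-fold in any comparison and up to 3 with the largest differences; a few others (Gdf5, Nog, Bambi, Hey1, Msx1, Msx2, Sp7, Tcf3, the receptors, Smads and myogenic factors) were named for their roles after the values were seen. Results for some list genes are not reported here.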

Additional observations from a re-analysis of the deposited data

Results flagged for a closer look

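The EPS differences of 2 genes had opposite signs at the 2 time points, each beyond the 95th percentile of the spot error. Id3 was higher with EPS at 0 min by 0.81 and lower at 5 h, at -0.22. Id1 was higher by 0.39 at 0 min and lower at 5 h, at -0.13, or -0.04 under median centring, within that error. With 1 array per group, the differences between time points were not tested.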

How the results depend on the processing

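In the counts of members past 2-fold, those at least 2-fold lower at 5 h stayed within 1.5 times of the 4 without EPS and 3 with EPS under every alternative run, although Id2 left the first under median centring and Bmp4 left both with the mean of its probes. The count at least 2-fold higher at 5 h with EPS was 1 (Grem1) under normexp, quantile normalization and median centring, in place of 0. The count at least 2-fold lower in the difference of EPS differences was 0 under the same 3 settings in place of 1 (Id3), and 2 (Bmp6 and Id3) without a background filter and with a filter on at least 1 array. Without a background filter the counts with EPS were 1 higher at 0 min (Id4), 1 higher at 5 h (Id4) and 1 lower at 5 h (Bmp6), where each had been 0, because dim probes then enter. No difference of 2-fold or more changed sign under any alternative, and the deposited value table gave the same values. Median centring moved the median difference of all genes over 5 h to 0.11 without EPS and 0.10 with EPS, and normexp moved it to -0.13 with EPS. Dim probes limit what can be said of Bmp2, Bmp6, Id4, Smad9, Tbx2, Atoh8 and Prdm1. No replicate could be left out, and no paired analysis was possible because each group has 1 array.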
